A study of Homo sapiens with 12 samples.

Results

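The tissue factor pathway and the plasminogen activators are described here as 8 genes: F3 (tissue factor), TFPI, TFPI2, THBD, PLAU, PLAUR, PLAT and SERPINE2. They were selected on measured values, because TFPI moved in opposite directions in the 2 cell lines under everolimus, and all 13 probes that the platform annotation gives to 1 of these symbols were read on every array. The 8 are among 20046 named genes on the array, of which 11764 were tested, and 7 of the 8 were among the tested genes. THBD exceeded the floor that separates signal from background on 2 of 12 arrays, and a test needed 3.

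Total RNA of cultured cells was hybridised to 12 Illumina bead arrays in 4 groups of 3 replicates. BT-549 cells in 10 uM everolimus were set against BT-549 cells in DMSO, and MDA-MB-231 cells in 10 uM everolimus against MDA-MB-231 cells in DMSO, all after 48 h. BT-549 and MDA-MB-231 are established lines that the labels class as triple negative breast cancer, so each line is 1 example of its class, and the labels give no genetic change for any group. Everolimus is a rapamycin analogue that inhibits the kinase complex mTORC1, and DMSO is its solvent. Nothing in the labels says that replicates were separate cultures, so p-values measure the spread between these arrays, which may be technical.

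Tissue factor is a membrane receptor that binds factor VIIa and starts blood coagulation. TFPI blocks the tissue factor and factor VIIa complex in a factor Xa dependent way. Its relative TFPI2 inhibits plasmin and other trypsin-like proteases, and THBD (thrombomodulin) turns thrombin towards activating protein C. PLAU (urokinase) and PLAT (tissue plasminogen activator) cut plasminogen into plasmin, which dissolves fibrin and degrades matrix. PLAUR, the urokinase receptor, holds urokinase on the cell surface, and SERPINE2 (protease nexin-1) inhibits thrombin and both activators. In breast cancer cells, tissue factor and the urokinase system have been studied for their part in clotting, invasion and signalling through protease activated receptors.

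The 250 bases before the annotated start are printed for F3, the member with the largest difference between the lines, for TFPI, which chose the group, and its relative TFPI2, and for PLAUR, whose probes disagreed. They are from RefSeq on GRCh38.p14, all on the minus strand and written 5′ to 3′ as the gene reads. F3 lies at chr1:94541760-94542009, TFPI at chr2:187554436-187554685, TFPI2 at chr7:93890754-93891003 and PLAUR at chr19:43670170-43670419. Capitals mark letters that match a searched motif on either strand, and overlapping matches run together.
F3: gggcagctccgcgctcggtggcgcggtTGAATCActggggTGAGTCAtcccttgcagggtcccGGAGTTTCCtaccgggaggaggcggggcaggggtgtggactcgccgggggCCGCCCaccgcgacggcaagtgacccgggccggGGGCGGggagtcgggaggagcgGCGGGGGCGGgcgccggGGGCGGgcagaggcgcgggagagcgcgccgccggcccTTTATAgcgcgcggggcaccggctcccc
TFPI: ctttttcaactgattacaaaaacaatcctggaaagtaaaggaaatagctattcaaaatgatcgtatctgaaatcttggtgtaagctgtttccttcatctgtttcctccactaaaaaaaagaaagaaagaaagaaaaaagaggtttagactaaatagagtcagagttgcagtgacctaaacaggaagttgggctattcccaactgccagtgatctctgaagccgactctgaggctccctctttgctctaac
TFPI2: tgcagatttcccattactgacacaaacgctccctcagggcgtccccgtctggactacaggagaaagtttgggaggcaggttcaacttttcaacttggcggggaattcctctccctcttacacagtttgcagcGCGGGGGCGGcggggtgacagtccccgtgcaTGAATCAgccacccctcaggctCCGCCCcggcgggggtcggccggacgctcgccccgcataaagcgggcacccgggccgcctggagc
PLAUR: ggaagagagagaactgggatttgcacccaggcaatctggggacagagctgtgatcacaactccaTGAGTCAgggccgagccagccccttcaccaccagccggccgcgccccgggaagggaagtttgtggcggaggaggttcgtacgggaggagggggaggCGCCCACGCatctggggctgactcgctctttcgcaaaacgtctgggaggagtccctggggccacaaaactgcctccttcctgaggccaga

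The F3 window held the most matches of these 4. AP-1 letters (TGANTCA) began 223 and 210 bases before the start, kB letters (GGANTTTCC) 187 bases before it, and EGR1 letters (GCGNGGGCG) 82 bases before it. It also held 4 GC boxes (GGGCGG), of which 1 overlaps the EGR1 match, and TATA letters (TATAAA) on the opposite strand at 28 bases. AP-1, NF-kB, EGR1 and SP1 are factors known to act on the F3 promoter. The TFPI2 window held AP-1 letters at 87 bases, EGR1 letters at 118 bases with an overlapping GC box, and a further GC box. The PLAUR window held AP-1 letters at 186 bases and EGR1 letters on the opposite strand at 90 bases.

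The TFPI window held none of the 6 motifs searched, the sixth being the ETS letters CCGGAAGT. Of 35116 promoter windows of the same length, 6.57% held AP-1 letters, 1.45% kB, 8.41% EGR1, 42.6% a GC box, 3.42% ETS and 10.7% TATA letters. The F3 window had a GC content of 78.0%, with 94.8% of these windows at or below it, and the TFPI window 38.4%, with 10.8% at or below it. A match describes letters only, and no binding was measured.

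Signals are log2 values with background left in, so changes of dim genes are compressed. The floor was 6.77 on this scale, and a gene was tested if 1 of its probes exceeded it on at least 3 of 12 arrays. Between 9840 and 10360 genes per array were above it. Replicate 1 of BT-549 everolimus lay farthest from its group (SD over genes 0.393), and the 4 replicate 1 arrays (0.229 to 0.393) were each farther from their group means than the other 8 arrays (0.0822 to 0.227). Member results that rest on BT-549 everolimus replicate 1 are given with and without it. Of 8 markers of the lines' class and state, ESR1 and CDH1 were above the floor on 0 of 12 arrays and PGR on 1. ERBB2 was above it on all 12, between 8.20 and 9.82, and VIM on all 12, between 13.45 and 14.39, while EPCAM was on 8 and KRT8 and KRT18 on 7 each. In bulk RNA, fewer cells of a type and less RNA per cell cannot be told apart.

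TFPI, whose values under everolimus chose the group, is described with no test. In MDA-MB-231 its brightest probe read 9.61, 9.83 and 9.84 in everolimus, against 9.03, 8.98 and 8.81 in DMSO. In BT-549 the same probe read 8.70, 9.07 and 8.96 in everolimus, against 9.53, 9.40 and 9.39 in DMSO. All 3 everolimus arrays were above all 3 DMSO arrays in MDA-MB-231 and below them in BT-549. The differences were 0.82 in MDA-MB-231 but -0.53 in BT-549 (SE 0.12 each, log2), and -0.43 in BT-549 without everolimus replicate 1. BT-549 minus MDA-MB-231, these effects differed by -1.35.

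The second TFPI probe, annotated to the same transcript, moved alike. It averaged 9.26 ± 0.13 in everolimus and 8.65 ± 0.27 in DMSO in MDA-MB-231 (SD, n = 3 each). In BT-549 it averaged 8.27 ± 0.22 in everolimus and 8.82 ± 0.14 in DMSO, and in both lines its groups did not overlap. The third probe is annotated to a different TFPI transcript and was dimmer. It read 7.49, 7.64 and 7.78 in everolimus and 7.40, 7.40 and 7.33 in DMSO in MDA-MB-231, where the groups did not overlap. In BT-549 it read 7.20, 7.43 and 7.25 in everolimus and 7.79, 7.64 and 7.18 in DMSO, and there the groups overlapped.

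Under DMSO the brightest TFPI probe was higher in BT-549, at 9.44 ± 0.08, than in MDA-MB-231, at 8.94 ± 0.12, a difference of 0.50. This baseline shares its DMSO arrays with the values that chose TFPI and is given with no test. The other 2 probes overlapped between the lines under DMSO, with differences of 0.17 and 0.16. Under everolimus the order was the other way round for the brightest probe, whose 3 BT-549 arrays all lay below the 3 MDA-MB-231 arrays.

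**Figure D1:**
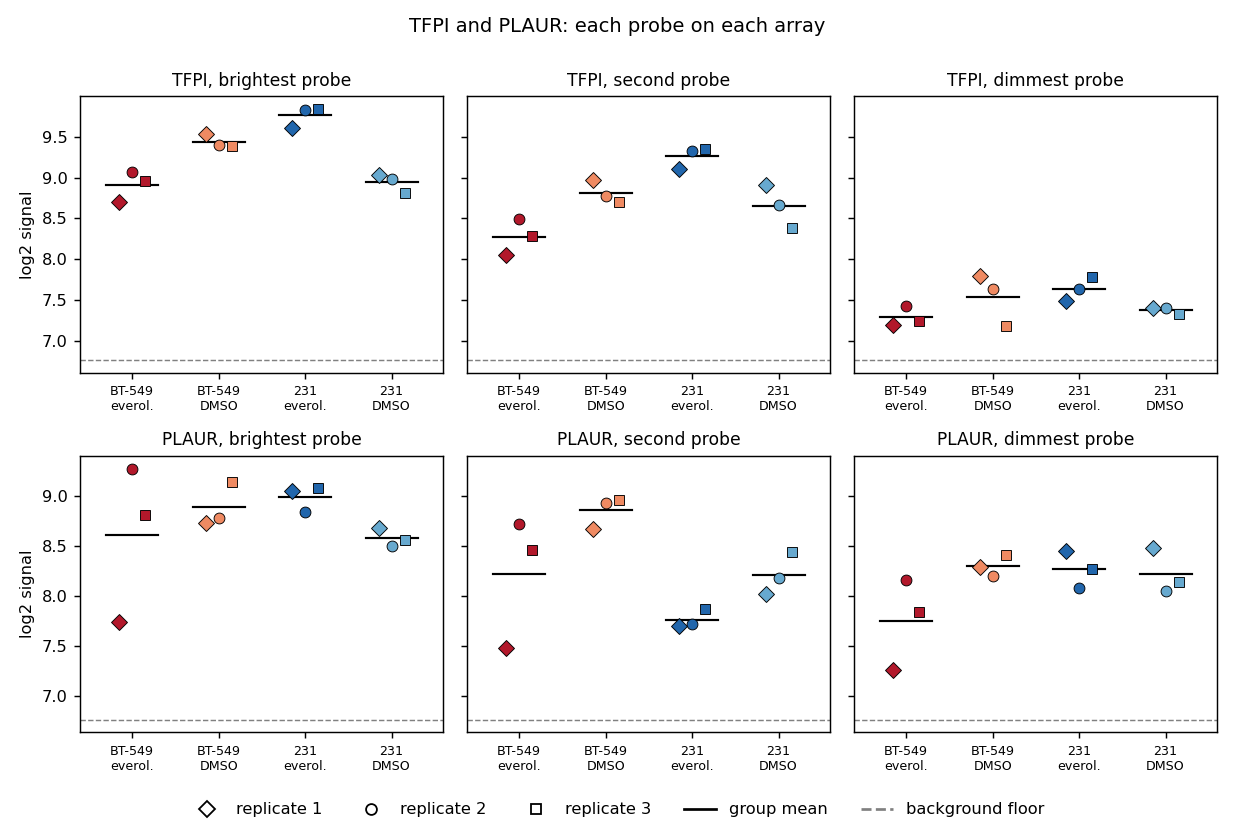
Log2 signal (vertical axis) of the 3 TFPI probes and the 3 PLAUR probes on the 12 arrays, with 1 point per array shaped by replicate number, a line at each group mean and a dashed line at the floor. The 2 brighter TFPI probes are higher in everolimus in MDA-MB-231 and lower in BT-549, whereas in MDA-MB-231 the PLAUR probes differ by 0.41, -0.45 and 0.04.

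The 5 genes whose signal followed the brightest TFPI probe most closely over the 12 arrays were XBP1 (Pearson r = 0.886), TMEM230 (0.831), FBXL19 (0.822), PPP1R11 (0.822) and NPR1 (0.818). After subtracting each line's mean they were TVP23B (r = 0.902), TCEAL1 (0.898), XBP1 (0.893), PPP1CA (0.885) and TSPAN3 (0.873). XBP1, a transcription factor of the unfolded protein response, is in both lists. Its differences between everolimus and DMSO were 0.84 in MDA-MB-231 but -0.46 in BT-549. The 12 arrays share lines and treatments, so these correlations describe the pattern by which the genes were picked.

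The members other than TFPI were first compared between the lines without drug. Of the 6 tested, SERPINE2 was higher in BT-549 than in MDA-MB-231, and F3 and PLAT were lower (limma, adjusted p under 0.05 over all genes). Over all 11764 genes, 30.4% were called in this comparison, so calls were common. For each of the 6 the 3 arrays of one line lay apart from those of the other, 2 higher and 4 lower in BT-549, as they did for 47.9% of all genes. The median difference of the 6 was -0.94, against -0.02 over all genes.

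F3 had the largest difference of the 6. Its brightest probe read 6.76, 6.56 and 6.68 in BT-549, against 11.51, 11 and 11.41 in MDA-MB-231. The 3 BT-549 arrays were not above the floor, so F3 was at least 23.3-fold lower in BT-549 under DMSO (limma adjusted p = 1.1e-08). The fold sets the mean of the bright group against the floor, or against the dim array's own value where that is higher. F3 was tested through its MDA-MB-231 arrays, so this p sets signal against background. The second F3 probe read 6.71, 6.65 and 6.65 in BT-549 and 10.08, 9.68 and 9.82 in MDA-MB-231, at least 8.53-fold lower in BT-549. Tissue factor transcript was thus measured well above background in MDA-MB-231 and not above it in BT-549.

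The line difference of F3 was also present in drug. In everolimus its brightest probe read 6.44, 6.90 and 6.77 in BT-549, 2 of 3 arrays lying above the floor, against 11.04, 11.01 and 11.20 in MDA-MB-231. That made F3 at least 19.3-fold lower in BT-549, and at least 7.46-fold by the second probe, with no test of its own.

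**Figure D2:**
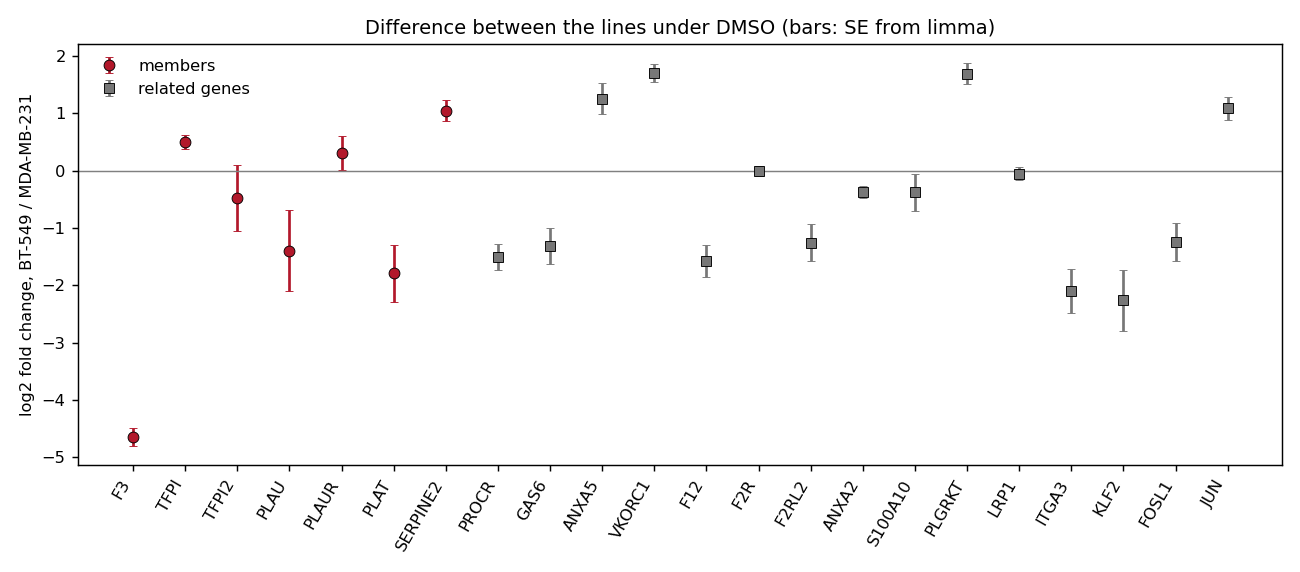
Fitted log2 difference (vertical axis), BT-549 over MDA-MB-231 under DMSO, for the 7 tested members (circles) and for related genes (squares), with bars of 1 SE from limma. F3 lies at -4.64, a value fitted against signal at the floor, while SERPINE2 (1.05) lies above 0, and PLAT (-1.79) and PLAU (-1.39) below it.

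SERPINE2, the inhibitor of thrombin and the plasminogen activators, was the member that was higher in BT-549. It read 11.93, 11.70 and 11.67 in BT-549 DMSO, against 10.30, 10.80 and 11.06 in MDA-MB-231 DMSO. The difference was 1.05 (SE 0.19), a 2.07-fold higher signal (limma adjusted p = 0.0017), and it was called in all 12 fits that left out 1 array.

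PLAT, which makes tissue plasminogen activator, was lower in BT-549. It read 8.40, 7.88 and 7.45 in BT-549 DMSO, against 10.12, 9.90 and 9.09 in MDA-MB-231 DMSO, with no overlap. The difference was -1.79 (SE 0.50; limma adjusted p = 0.0191). The call was kept in 8 of 12 fits that left out 1 array. It was lost without MDA-MB-231 DMSO replicate 1 (adjusted p = 0.0607) or 2 (0.0620), or without BT-549 DMSO replicate 2 (0.0571) or 3 (0.0649).

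The urokinase gene PLAU read 9.56, 10.58 and 11.07 in BT-549 DMSO, against 12.51, 11.46 and 11.42 in MDA-MB-231 DMSO. Every BT-549 array was below every MDA-MB-231 array, but the difference of -1.39 (SE 0.70) was not called (limma adjusted p = 0.161). Without BT-549 everolimus replicate 1, which enters this fit through the shared estimate of spread, the same difference had an adjusted p of 0.0196. Blocking on replicate number gave an adjusted p of 0.00724. The block takes spread between replicate numbers of a line out of the error, and a difference between lines contains that spread. This p is therefore too low to carry a call.

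PLAUR and TFPI2 were not called between the lines. PLAUR averaged 8.88 ± 0.22 in BT-549 DMSO and 8.58 ± 0.09 in MDA-MB-231 DMSO for its brightest probe, a difference of 0.30 (SE 0.30). Its other probes differed by 0.64 and 0.08. TFPI2 averaged 8.53 ± 0.40 in BT-549 DMSO and 9.01 ± 0.10 in MDA-MB-231 DMSO, a difference of -0.48 (95% interval -1.74 to 0.78). THBD read 6.64, 6.50 and 6.61 in BT-549 DMSO and 6.73, 6.82 and 6.66 in MDA-MB-231 DMSO, where 1 array was above the floor.

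Everolimus in MDA-MB-231 was compared next. Of the 6 members other than TFPI, 0 were called by limma and 0 had an unadjusted p under 0.05. Over all genes 18 were called (0.153%) and 1246 had an unadjusted p under 0.05. The differences of 5 of the 6 were above 0, with a median of 0.34, against -0.01 over all genes. TFPI2 and the brightest PLAUR probe did not overlap between everolimus and DMSO, 2 of 6, where 18.6% of all genes did not overlap.

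TFPI2 read 9.24, 9.48 and 9.32 in everolimus, against 8.98, 8.93 and 9.12 in DMSO. Its difference was 0.34 (SE 0.57, limma adjusted p = 0.937). The SE is shared over the 4 groups and includes the wide BT-549 everolimus group. Without BT-549 everolimus replicate 1 it was 0.21, and the adjusted p was 0.532.

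The 3 PLAUR probes gave different directions in MDA-MB-231. The brightest probe (ILMN_2374340) read 9.05, 8.84 and 9.08 in everolimus, against 8.68, 8.50 and 8.56 in DMSO, a difference of 0.41 (SE 0.30, limma adjusted p = 0.737). A second probe annotated to the same transcript (ILMN_1691508) read 7.70, 7.72 and 7.87 in everolimus, against 8.02, 8.18 and 8.44 in DMSO. It lay lower in everolimus on all 3 arrays, by 0.45, whereas the brightest probe lay higher. The third (ILMN_2408543), annotated to another PLAUR transcript, differed by 0.04 with overlapping groups. No direction for PLAUR as a gene can be read from these probes in MDA-MB-231.

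F3 was abundant in MDA-MB-231 and its groups overlapped. It averaged 11.08 ± 0.10 in everolimus and 11.31 ± 0.27 in DMSO (SD, n = 3 each), a difference of -0.22 (limma adjusted p = 0.705). The 95% interval was -0.56 to 0.12. PLAU averaged 12.23 ± 0.46 in everolimus and 11.80 ± 0.62 in DMSO, a difference of 0.43 whose 95% interval, -1.12 to 1.98, is wide. In both groups replicate 1 was the highest array for PLAU, at 12.75 in everolimus and 12.51 in DMSO.

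PLAT read 10.33, 9.60 and 9.34 in everolimus and 10.12, 9.90 and 9.09 in DMSO, a difference of 0.05 (95% interval -1.04 to 1.15). SERPINE2 read 10.82, 11.13 and 11.22 in everolimus and 10.30, 10.80 and 11.06 in DMSO. Each SERPINE2 everolimus array was above the DMSO array of its own number. Its difference was 0.34 (limma adjusted p = 0.581, and 0.141 when blocked on replicate number). Same-numbered arrays of this line deviated from their group means together, with r of 0.735, 0.544 and 0.418 over genes for numbers 1, 2 and 3. Unlike-numbered arrays did too, with r of 0.546 for everolimus 3 with DMSO 2 and 0.360 for everolimus 2 with DMSO 3. Numbers 2 and 3 were thus not told apart by these r. With the replicate block 79 genes were called instead of 18, and no member's call changed. THBD read 7.07, 6.68 and 6.75 in everolimus and 6.73, 6.82 and 6.66 in DMSO, with 1 array of each group above the floor, and was not tested.

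**Figure D3:**
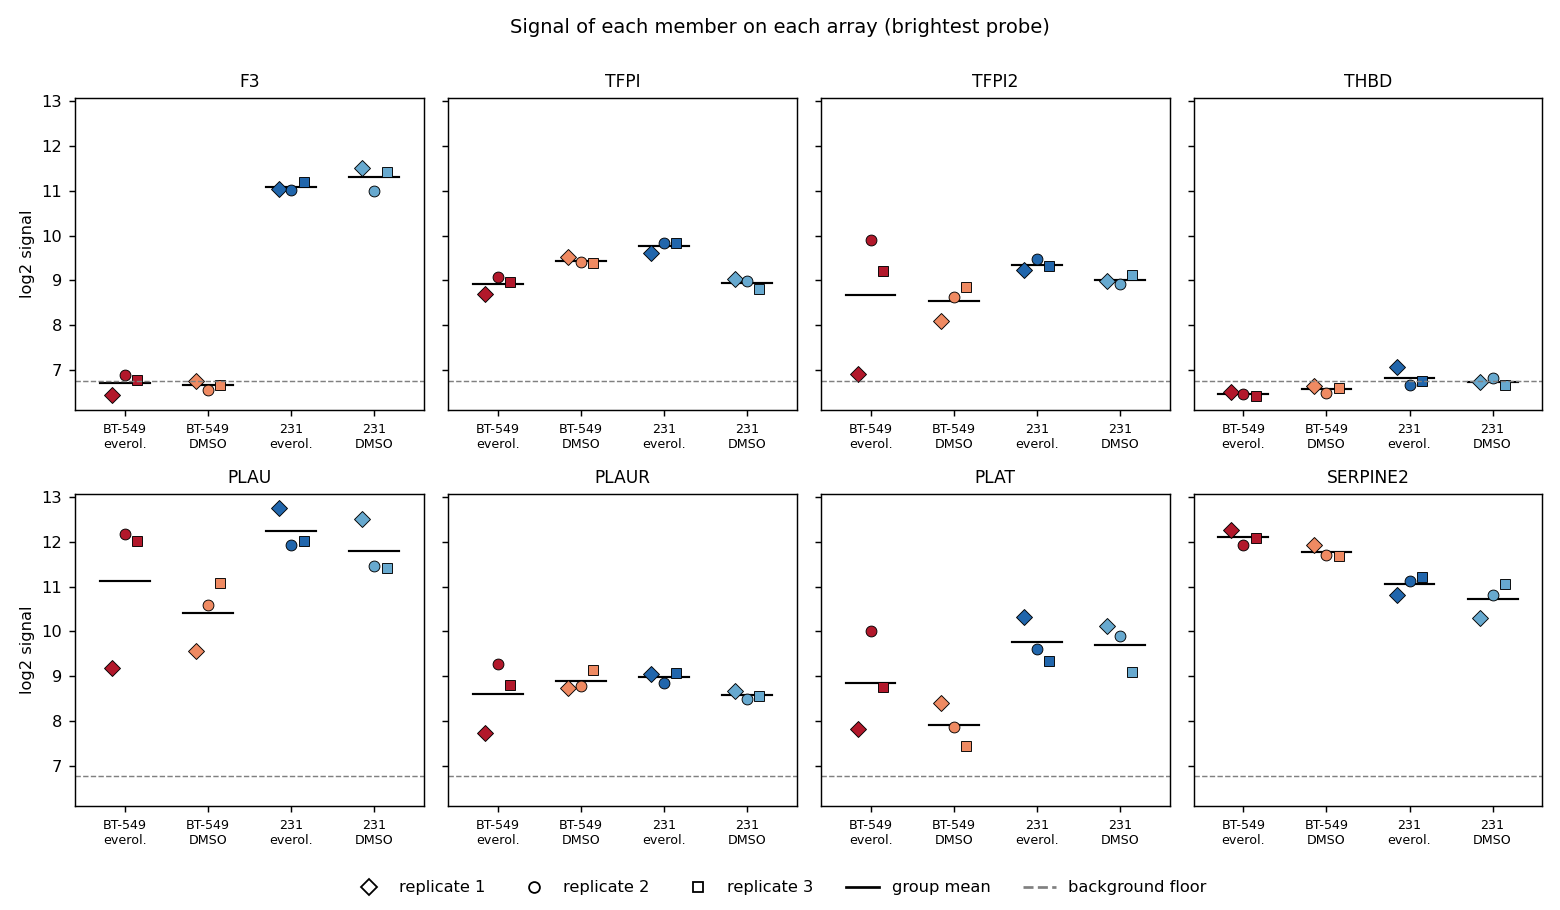
Log2 signal (vertical axis) of the brightest probe of each of the 8 members on every array, with 1 point per array shaped by replicate number, a line at each group mean and a dashed line at the floor. In BT-549 everolimus, replicate 1 (diamond) lies well below replicates 2 and 3 for TFPI2 (6.92), PLAU (9.18), PLAUR (7.74) and PLAT (7.82), but not for SERPINE2.

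In BT-549, 1972 genes (16.8%) were called under everolimus by limma. Of the 6 members other than TFPI 0 were called, and 0 had an unadjusted p under 0.05, against 3720 over all genes. The differences of 5 of the 6 were above 0, with a median of 0.24, against 0.04 over all genes. The groups overlapped or touched for all 6, while they lay apart for 32.7% of all genes.

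These counts rested on BT-549 everolimus replicate 1. Without that array, TFPI2, PLAU and PLAT were called higher, 3 of 6, and 28.0% of all genes were called. The array lay below the mean of replicates 2 and 3 by 2.91 for PLAU, by 2.64 for TFPI2, by 1.56 for PLAT and by 1.30 for PLAUR on the log2 scale. Gaps at least that large in either direction were seen in 0.332%, 0.468%, 2.45% and 4.17% of all tested genes, in the same order. For TFPI the array lay 0.32 below the others and for SERPINE2 0.26 above, gaps that 43.3% and 50.7% of genes matched or passed.

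PLAU read 9.18, 12.16 and 12.02 in BT-549 everolimus, against 9.56, 10.58 and 11.07 in BT-549 DMSO. Replicates 2 and 3 in everolimus were above every DMSO array, and replicate 1 was below every one. The difference was 0.72 (SE 0.70, limma adjusted p = 0.539). Without that replicate 1 it was 1.69 (SE 0.45), or 3.22-fold higher in everolimus (adjusted p = 0.0185). Replicate 1 was also the lowest DMSO array, at 9.56. With replicate 1 left out of every group, the PLAU difference was smaller, at 1.265.

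TFPI2 had the same pattern, with 6.92, 9.91 and 9.20 in BT-549 everolimus, against 8.09, 8.64 and 8.86 in BT-549 DMSO. The lowest TFPI2 value of the 12 arrays was this replicate 1. The difference was 0.15 (SE 0.57, limma adjusted p = 0.900) with it and 1.03 (SE 0.24, adjusted p = 0.0102) without it. Among the DMSO arrays replicate 1 was the lowest too, at 8.09. With replicate 1 left out of every group, the TFPI2 difference was 0.805.

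PLAT read 7.82, 10.00 and 8.76 in BT-549 everolimus, against 8.40, 7.88 and 7.45 in BT-549 DMSO. Here replicates 2 and 3 in everolimus again lay above every DMSO array, while replicate 1 lay among them. The difference was 0.95 (SE 0.50, limma adjusted p = 0.218), and 1.47 (SE 0.44, adjusted p = 0.0320) without it. For PLAT replicate 1 was instead the highest DMSO array, at 8.40. With replicate 1 left out of every group, the PLAT difference was larger, at 1.715.

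PLAUR, which binds the urokinase that PLAU encodes, had a difference below 0 on all 3 probes, none of them called. Its brightest probe read 7.74, 9.27 and 8.81 in BT-549 everolimus, against 8.73, 8.78 and 9.14 in BT-549 DMSO. The difference was -0.28 (limma adjusted p = 0.585), and 0.16 without replicate 1. The other 2 probes gave -0.63 and -0.55, and -0.26 and -0.30 without replicate 1, and for the third all everolimus arrays (7.26, 8.16 and 7.84) were below all DMSO arrays (8.29, 8.20 and 8.41). With every probe tested on its own, their adjusted p-values were 0.119 and 0.0931.

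SERPINE2 read 12.27, 11.93 and 12.09 in BT-549 everolimus, against 11.93, 11.70 and 11.67 in BT-549 DMSO. The groups touched at 11.93, and the difference was 0.33 (SE 0.19, limma adjusted p = 0.256). Blocking on replicate number gave an adjusted p of 0.0453, but BT-549 numbers did not pair by the rule used, since r was 0.0787 for number 2. F3 had a difference of 0.04 between values at or near the floor, 2 of 3 everolimus arrays and 0 of 3 DMSO arrays lying above it, and no fold is given. THBD read 6.51, 6.47 and 6.42 in BT-549 everolimus and was under the floor in both BT-549 groups.

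Markers of other cell types were read beside these values. Of 6 endothelial markers, CDH5, KDR and CLDN5 were above the floor on 0 of 12 arrays, PECAM1 on 2, and TEK and VWF on 3 each. VWF read 6.42, 8.31 and 8.22 in BT-549 everolimus, against 6.45, 6.56 and 6.60 in BT-549 DMSO, so its high arrays were the 2 on which PLAU, TFPI2 and PLAT were high. TEK read 6.58, 7.06 and 7.13 in BT-549 everolimus, against 6.65, 6.77 and 6.71 in BT-549 DMSO, highest on the same arrays. Without everolimus replicate 1, TEK was called higher by 0.39 (limma adjusted p = 0.0153). TEK exceeded the floor on those 2 arrays and on 1 DMSO array at 6.77, so this p sets signal against values near background. The summed linear signal of the 6 ranged between 566 and 838 in BT-549 everolimus and between 588 and 597 in BT-549 DMSO. In MDA-MB-231 it ranged between 564 and 594 in everolimus and between 566 and 585 in DMSO.

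Of 4 leukocyte markers, PTPRC was above the floor on 0 arrays, CD14 on 11, and LYZ and CD68 on all 12. CD68 read 8.50, 11.09 and 11.31 in BT-549 everolimus, against 8.17, 9.09 and 9.56 in BT-549 DMSO, a difference of 1.36 (limma adjusted p = 0.152). Without everolimus replicate 1 it was 2.26 (adjusted p = 0.00065), so this CD68 probe was also high on the arrays on which PLAU, TFPI2 and PLAT were. The other CD68 probes gave 0.0033 and 0.48 in BT-549 over all arrays. The summed signal of the 4 leukocyte markers ranged between 703 and 2888 in BT-549 everolimus and between 650 and 1086 in BT-549 DMSO. The brightest CD68 probe gave the largest part of it. It ranged between 4227 and 4853 in MDA-MB-231 everolimus and between 3227 and 3255 in MDA-MB-231 DMSO. Of 4 platelet markers, PF4, ITGA2B and GP9 were above the floor on 0 arrays, and PPBP was on all 12, between 6.85 and 7.13. Their sum was 406 to 425 in BT-549 everolimus, 393 to 422 in BT-549 DMSO, 409 to 432 in MDA-MB-231 everolimus and 394 to 411 in MDA-MB-231 DMSO. The part of these levels in the member results was not tested.

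The everolimus effects were compared between the lines directly, BT-549 minus MDA-MB-231. By limma 0 of the 6 members other than TFPI were called and 0 had an unadjusted p under 0.05, against 75 called genes (0.638%) and 1842 with an unadjusted p under 0.05. The intervals were wide: 0.29 (95% interval -1.91 to 2.48) for PLAU, 0.90 (-0.65 to 2.45) for PLAT and -0.19 (-1.97 to 1.59) for TFPI2. PLAUR had -0.69 (-1.62 to 0.25), F3 0.26 (-0.22 to 0.74) and SERPINE2 -0.01 (-0.59 to 0.58). These do not show that the lines respond alike. Without BT-549 everolimus replicate 1 the count was also 0, while 10.4% of all genes were called. The differences were then 0.69 for TFPI2, 1.26 for PLAU, 1.42 for PLAT and -0.25 for PLAUR.

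Leaving out the 4 replicate 1 arrays changed this for both plasminogen activators. The difference of effects was then 0.74 for PLAU (limma adjusted p = 0.0361) and 1.74 for PLAT (adjusted p = 0.0421), with 2 arrays per group, while 19.9% of all genes were called. In that fit, where 38.2% of all genes were called in BT-549, PLAT rose by 1.72 in BT-549 (adjusted p = 0.00499) and differed by -0.025 in MDA-MB-231 (adjusted p = 0.982). PLAU had differences above 0 in both lines, 1.265 in BT-549 (adjusted p = 0.000208) and 0.525 in MDA-MB-231 (adjusted p = 0.0683, not called).

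**Figure D4:**
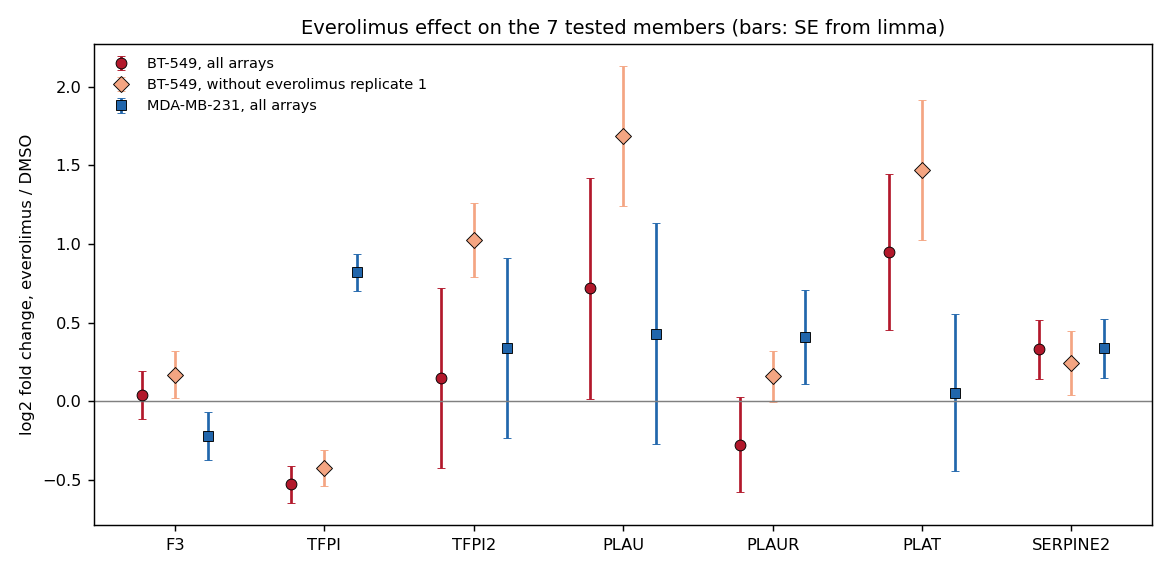
Log2 difference (vertical axis) between everolimus and DMSO for the 7 tested members, in BT-549 with all arrays (circles) and without everolimus replicate 1 (pale diamonds), and in MDA-MB-231 (squares), with bars of 1 SE from limma. TFPI lies at 0.82 in MDA-MB-231 but -0.53 in BT-549, while the pale diamonds for TFPI2 (1.03), PLAU (1.69) and PLAT (1.47) lie above the circles. With replicate 1 left out of every group, these BT-549 differences were 0.805, 1.265 and 1.715.

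Genes around the members were taken from 7 lists of 73 genes, of which 42 were tested. Under everolimus in MDA-MB-231, 0 of the 42 were called by limma, beside 0.153% of all genes. An unadjusted p under 0.05 was seen for 3 of the 42, against 1246 of all 11764 genes. In BT-549, 3 were called higher and 3 lower (14.3%, beside 16.8% of all genes). Without everolimus replicate 1, 7 were called higher and 4 lower, in a fit that called 28.0% of all genes. Between the lines under DMSO, 9 were higher in BT-549 and 11 lower (47.6%, beside 30.4%). Medians over the 42 were 0.08 and 0.06 for everolimus in MDA-MB-231 and BT-549, and -0.10 between the lines.

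Few circulating coagulation factors gave signal in these cells: 3 of 16 were tested, F8, F12 and VWF. F12, the factor that starts the contact pathway, was lower in BT-549 DMSO (7.17 ± 0.21) than in MDA-MB-231 DMSO (8.74 ± 0.21), by a difference of -1.58 (limma adjusted p = 0.00136). None of the 3 was called under everolimus in either line with all arrays. In BT-549 without everolimus replicate 1, both F12 (0.58, adjusted p = 0.0219) and VWF (1.73, adjusted p = 2.1e-05) were called higher. That fit called 28.0% of all genes. VWF exceeded the floor on 3 arrays, and the BT-549 everolimus arrays kept in that fit (8.31 and 8.22) were among them. Its selection for testing was thus not independent of its call. VWF was under the floor on every BT-549 DMSO array, so its p sets signal against background. Its difference of 1.73 was likewise fitted against values under the floor. Of 10 anticoagulant genes 5 were tested, and between the lines 1 was higher and 3 lower in BT-549, where 30.4% of all genes were called.

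PROCR, the endothelial protein C receptor, averaged 7.52 ± 0.34 in BT-549 DMSO and 9.03 ± 0.18 in MDA-MB-231 DMSO (difference -1.51, limma adjusted p = 0.000532). Under everolimus PROCR differed by -0.21 in BT-549 (-0.018 without replicate 1) and by -0.25 in MDA-MB-231, neither called. GAS6, a vitamin K dependent ligand of TAM receptors, was lower in BT-549 (difference -1.31, adjusted p = 0.00884), although its other probes gave -1.34 and -0.24. ANXA5, which covers phosphatidylserine on membranes, was higher in BT-549, at 11.92 ± 0.31, than in MDA-MB-231, at 10.66 ± 0.27 (adjusted p = 0.00521).

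VKORC1, which recycles the vitamin K that clotting factors need, was lower under everolimus in BT-549. It averaged 11.70 ± 0.06 in BT-549 everolimus and 12.56 ± 0.36 in BT-549 DMSO, a difference of -0.86 (limma adjusted p = 0.00489), and its second probe gave -1.07. The call held in all 12 fits that left out 1 array. In MDA-MB-231 it averaged 10.86 ± 0.11 in everolimus and 10.86 ± 0.03 in DMSO. The difference of the effects, -0.86, had an adjusted p of 0.0973, and 0.0390 without BT-549 everolimus replicate 1. Between the lines under DMSO, VKORC1 was higher in BT-549 by 1.70 (adjusted p = 1.4e-05). The carboxylase gene GGCX was lower there by 0.72 (adjusted p = 0.0124, and 0.0515 without BT-549 DMSO replicate 1).

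Of the protease activated receptors, through which thrombin and other proteases signal, F2R (PAR1) read between 14.3 and 14.5 in every group. Its differences were -0.09 under everolimus in BT-549, -0.03 in MDA-MB-231 and -0.01 between the lines, none called. The highest signal in the whole table was 14.56, so a rise of F2R had little room to show, and its second probe gave -0.10, 0.29 and -0.46. F2RL2 was not above the floor on any BT-549 DMSO array and averaged 7.77 ± 0.64 in MDA-MB-231 DMSO, at least 2.01-fold lower in BT-549 (limma adjusted p = 0.0116). F2RL2 was tested through its MDA-MB-231 arrays alone, so this p too sets signal against background, and its second probe gave -0.65. F2RL1 was not analysed here.

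On the cell surface, ANXA2 and S100A10 form a plasminogen receptor. ANXA2 averaged 13.06 ± 0.12 in BT-549 everolimus and 13.45 ± 0.02 in BT-549 DMSO, a difference of -0.39 (limma adjusted p = 0.0247). The call was lost without any 1 of the 3 BT-549 DMSO arrays or BT-549 everolimus replicate 2 (highest adjusted p = 0.0897). Its other probes gave -1.75 and -0.19 in BT-549, and 0.91 and 0.05 in MDA-MB-231, where the brightest gave -0.01.

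S100A10 averaged 12.16 ± 0.22 in BT-549 everolimus and 13.06 ± 0.28 in BT-549 DMSO, a difference of -0.90 that was not called (adjusted p = 0.0831). It was called without MDA-MB-231 everolimus replicate 1 (adjusted p = 0.0311). In MDA-MB-231 it differed by -0.09. Between the lines, ANXA2 was lower in BT-549 by 0.37 (adjusted p = 0.0181, and 0.0739 without MDA-MB-231 DMSO replicate 2), and S100A10 differed by -0.38 (adjusted p = 0.412).

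The plasminogen receptor gene PLGRKT was higher in BT-549 DMSO, at 10.36 ± 0.06, than in MDA-MB-231 DMSO, at 8.67 ± 0.34 (limma adjusted p = 6.7e-05). ENO1, a glycolytic enzyme that also binds plasminogen at the surface, was higher by 0.54 (adjusted p = 0.0108). Neither was called under everolimus in either line.

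Among 9 tested partners and clearance receptors of PLAUR, IGF2R, which binds mannose 6-phosphate proteins and the urokinase receptor, was higher under everolimus in BT-549. It read 11.93, 11.90 and 12.18 in everolimus, against 10.70, 10.67 and 10.87 in DMSO, a difference of 1.26 (limma adjusted p = 0.00118) called in all 12 fits that left out 1 array. In MDA-MB-231 it read 10.20, 10.02 and 10.31 in everolimus and 9.81, 9.98 and 10.42 in DMSO, with overlap. The difference of the effects, 1.15, had an adjusted p of 0.0482 and kept its call in 2 of 12 fits that left out 1 array (range 0.0132 to 0.163).

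LRPAP1, a chaperone of the LRP1 receptor that clears protease and inhibitor complexes, was lower by 0.58 in BT-549 everolimus (limma adjusted p = 0.0164). That call was lost without BT-549 DMSO replicate 2 or BT-549 everolimus replicate 3 (highest adjusted p = 0.0655). Without everolimus replicate 1 in BT-549, the integrin subunit ITGAV was also called lower, by 0.94 (adjusted p = 0.00534). With all arrays its difference was -0.42 and was not called (adjusted p = 0.467). The omitted array read 9.53 for ITGAV, above every BT-549 DMSO array. LRP1 itself was near the floor, with group means between 6.59 and 6.91, and was called in no comparison. Between the lines, the integrin subunit ITGA3 averaged 8.52 ± 0.35 in BT-549 DMSO and 10.62 ± 0.19 in MDA-MB-231 DMSO (adjusted p = 0.00186). IGF2R was higher in BT-549 by 0.68 and VLDLR by 0.43 (adjusted p = 0.0076 and 0.00801).

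All 15 transcription factors known to act on F3, PLAU, PLAUR or THBD were tested. Under everolimus in BT-549, KLF2 and KLF6 were called higher and none lower, 2 of 15 beside 16.8% of all genes, and the median of the 15 was 0.25, against 0.04 over all genes. KLF2, which in endothelial cells raises THBD and lowers F3, read 8.49, 10.38 and 10.89 in BT-549 everolimus, against 7.24, 8.17 and 8.50 in BT-549 DMSO. Replicate 1 was the lowest array in each of these groups, and in everolimus it lay just under the highest DMSO array. The difference was 1.95 (limma adjusted p = 0.0300), or 2.67 (adjusted p = 0.000549) without everolimus replicate 1. The call was lost without BT-549 DMSO replicate 1 or 2, or BT-549 everolimus replicate 2 or 3 (highest adjusted p = 0.117). Without everolimus replicate 1, KLF4 (1.28, adjusted p = 0.00122) and FOSL1 (1.25, adjusted p = 0.0196) were also called higher, 4 of 15 beside 28.0% of all genes. With all arrays KLF4 differed by 0.80 (adjusted p = 0.132) and FOSL1 by 1.01 (adjusted p = 0.0579), neither called. The other KLF4 probe gave 0.33 with all arrays.

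KLF6 read 11.50, 12.08 and 12.14 in BT-549 everolimus, against 11.10, 10.80 and 10.47 in BT-549 DMSO, with no overlap. Its difference was 1.12 (limma adjusted p = 0.00538), called in all 12 fits that left out 1 array. In MDA-MB-231 KLF6 read 12.01, 11.60 and 11.88 in everolimus, against 11.03, 10.87 and 11.08 in DMSO, also without overlap, but its difference of 0.84 was not called (adjusted p = 0.128). Without BT-549 everolimus replicate 1 that adjusted p was 0.0432. For the 15 in MDA-MB-231 the median was 0.25 as well, with 0 called.

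Between the lines under DMSO, 4 of the 15 factors were called, beside 30.4% of all genes. KLF2 averaged 7.97 ± 0.65 in BT-549 and 10.23 ± 0.23 in MDA-MB-231 (difference -2.26, limma adjusted p = 0.00813). The AP-1 subunit gene FOSL1 was also lower in BT-549, by 1.25 (adjusted p = 0.0146, and 0.0607 without BT-549 DMSO replicate 1). JUN, the partner of FOS proteins in AP-1, averaged 11.44 ± 0.29 in BT-549 and 10.35 ± 0.19 in MDA-MB-231 (adjusted p = 0.00176).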

How the data were processed

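Transcripts of cultured cells were measured with 12 Illumina bead arrays. The deposited values are log2 signals that hold the same quantiles on every array (median 6.65), so the authors had quantile normalised them. For software, background correction and filters, the sources used here give nothing. A second deposited table has 12 columns of unnormalised values whose names match no label, so it was not used here. Per the labels' protocols, total RNA was extracted with a mirVana kit and amplified with a TotalPrep kit.

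Probes were named from the platform annotation, 30113 of 47230 with 1 symbol. The floor was the background peak (6.55) plus 3 SDs of 0.0724. The brightest probe per gene was tested, 11764 genes in all, by group means over all 12 arrays with limma 3.58.1 (R 4.3.3, statmod 1.5.0), 2-sided. P-values were adjusted by Benjamini-Hochberg over all genes, with calls under 0.05, and the script was tested on simulated data. Figures and motif searches used Python 3.11.15 and matplotlib 3.10.9. A motif was searched on both strands of the 250 bases before each RefSeq start (GRCh38.p14). The number of arrays limits the precision, and the median SE of a log2 difference was 0.15.

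The members and lists were chosen with earlier results of these data known. Named genes were all members, related genes given whatever their result (F2R, F2RL1, PROCR, ANXA2, S100A10 and LRP1), up to 3 called genes per list and comparison with the smallest p, and the 5 genes most like TFPI on each of 2 scales. The 7 lists were coagulation factors, anticoagulants, vitamin K carboxylation, protease activated receptors, the plasminogen system, partners and clearance receptors of PLAUR, and transcription factors. Marker genes, KLF4 and ITGAV, and F12 and FOSL1 in BT-549 were named after their values were seen. Replicate numbers were taken to pair the arrays where every same-numbered r was over 0.1. This held in MDA-MB-231 (0.735, 0.544 and 0.418), but not in BT-549 (0.500, 0.0787 and 0.411). Unlike-numbered arrays 2 and 3 of MDA-MB-231 correlated as well (0.360 and 0.546), so the rule does not show pairing by number. The alternatives were leaving out arrays, array weights, the block, background subtraction, equal medians, other floors, single probes, another variance prior and fits of 1 line.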

Additional observations from a re-analysis of the deposited data

How the results depend on the processing

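Members other than TFPI called under everolimus in MDA-MB-231 were 0 in every alternative, and between the lines under DMSO they were 2 to 4. In BT-549 they were 0 to 3 over the 12 fits without 1 array, 3 without the 4 replicate 1 arrays, 4 with array quality weights and 1 with the replicate block within line, which raised SERPINE2 over the threshold. For the difference of effects they were 2 without the 4 replicate 1 arrays and 1 with array quality weights. Calls over all genes moved in the same fits: 79 in MDA-MB-231, 3282 in BT-549 and 707 for the difference with the block, 1034, 6000 and 3522 with weights, and 806, 4498 and 2345 without the 4 replicate 1 arrays.

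Signs turned only for small uncalled differences. Over the fits without 1 array, PLAT ranged between -0.25 and 0.26 and S100A10 between -0.37 and 0.29 in MDA-MB-231, where F2R ranged between -0.057 and 0.0083 and ANXA2 between -0.08 and 0.075. In BT-549 TFPI2 ranged between -0.47 and 1.03, F3 between -0.062 and 0.17 and PLAUR between -0.61 and 0.16. The difference of effects ranged between -0.81 and 0.69 for TFPI2, -0.23 and 1.26 for PLAU and -0.18 and 0.20 for SERPINE2. Between the lines F2R ranged between -0.025 and 0.025 and LRP1 between -0.12 and 0.0067.

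Without the 4 replicate 1 arrays, PLAT was -0.025 and S100A10 0.005 in MDA-MB-231, PLAUR was 0.08 in BT-549, and the differences of effects were 0.43 for TFPI2 and 0.08 for SERPINE2. With array quality weights, S100A10 was 0.053 in MDA-MB-231, PLAUR was 0.21 in BT-549, and the differences of effects were 0.50 for TFPI2 and 0.022 for SERPINE2. With the background peak subtracted TFPI2 was -0.26 in BT-549. With equal medians F3 was -0.033 in BT-549 and F2R 0.0033 between the lines. With the background subtracted, LRP1 had no value where both groups sat at the lower limit. The causes were not tested.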
